A study of Mus musculus with 20 samples.

Results

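The transcriptional effect of *Per1* overexpression was set against that of *Per2* overexpression, gene by gene, in C2C12 myotubes. For each gene the *Per1* effect was the mean of the 5 *Per1* libraries minus the mean of the 5 *Gfp* libraries of the same set, and the *Per2* effect was the same difference within the *Per2* set. Genes were kept where the mean rlog value was at least 5 in each set of 10 libraries, and *Per1* and *Per2* themselves were left out, which gave 16575 genes of the 55335 in the data. An rlog value is a log2 scale level, computed from counts by a method that draws the differences of thinly counted genes toward 0, so all effects below are log2 differences and are likely smaller than the plain ratios for genes of low level. The question was which genes moved with one virus only, and which moved in opposite directions.

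C2C12 is an established mouse myoblast line that fuses into multinucleated myotubes when serum is withdrawn, and the cells were transduced on day 4 of differentiation and harvested 48 h later. The 4 groups were *Per1* and its *Gfp* control, and *Per2* and its own *Gfp* control, with 5 cultures each. The *Per* viruses also encode *Gfp*, each gene under a CMV promoter of its own, and both were used at the same viral concentration, which was above that of the virus encoding *Gfp* alone, so a *Per* effect and an effect of more virus cannot be told apart within a set. The labels call the cells myoblasts. All cultures were of 1 cell line, no library held both *Per* viruses, and since the RNA came from within an experimental replicate, p-values reflect how much single cultures varied.

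PER1 and PER2 are repressors of the circadian clock. In the core loop, BMAL1 with CLOCK or NPAS2 binds E-box sequences and drives the *Per* and *Cry* genes, whose proteins accumulate, enter the nucleus and repress BMAL1 and CLOCK. The receptors REV-ERB alpha and beta, encoded by *Nr1d1* and *Nr1d2*, are E-box targets themselves and repress *Bmal1* and *Npas2*, so a rise of PER protein can reach genes through both loops. PER1 and PER2 share their domains, including the PAS domains, and skeletal muscle holds a clock of its own.

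The 2 sets had been transformed separately, since 2712 genes were at 0 in all libraries of the *Per1* set but not of the *Per2* set, and 2391 the other way round. Levels were therefore never subtracted across sets, and the sets were compared only through their effects. A difference between the *Per1* and *Per2* effects cannot be told apart from a difference between the 2 sets of cultures. The first principal component separated *Per* from *Gfp* libraries in each set and held 67.5% and 62.2% of the variance, and no library stood apart on it. All 8 myotube markers passed the filter, against 4 of 6 macrophage and leukocyte markers, 1 of 4 endothelial and 0 of 3 adipocyte markers. Of the macrophage and leukocyte markers, *Ptprc* and *Adgre1* were below the filter, and *Cd68*, *Csf1r*, *Itgam* and *Lyz2* passed it.

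The labels were checked with the overexpressed genes. *Per1* mRNA content was 15.22, 15.27, 15.28, 15.27 and 15.30 with *Gfp* and 19.63, 19.39, 19.59, 19.64 and 19.63 with *Per1*, an effect of 4.31. *Per2* mRNA content was 14.76, 14.74, 14.92, 14.96 and 14.73 with *Gfp* and 19.75, 19.71, 19.65, 19.67 and 19.77 with *Per2*, an effect of 4.89. Each gene was thus far above all control libraries in its own set, where viral and endogenous transcripts cannot be told apart. In the other set the gene is the endogenous one. *Per1* was 13.13, 13.05, 13.22, 13.28 and 13.13 with *Gfp* and 12.84, 12.86, 12.86, 13.03 and 13.05 with *Per2*, a difference of -0.23 in which the groups met at 13.05. *Per2* was 12.10, 12.06, 12.20, 12.40 and 12.52 with *Gfp* and 12.15, 12.47, 12.58, 12.06 and 12.03 with *Per1*, and these groups overlapped throughout.

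A gene was called where the p-value from limma, adjusted over all 16575 genes by the method of Benjamini and Hochberg, was at most 0.05 and the size at least 0.5. With *Per1*, 89 genes rose (0.537% of those tested) and 52 fell (0.314%). With *Per2*, 66 rose (0.398%) and 61 fell (0.368%). Both viruses raised 42 genes and lowered 25, and no gene was called in opposite directions. The effects lay along one diagonal, with a Pearson r of 0.69 and a Spearman rho of 0.65 across the 16575 genes, and of 0.83 and 0.77 across the 201 genes called with either virus, given as a description since genes are not replicates. Without the interferon and MHC lists, 166 called genes remained with an r of 0.78. The interquartile ranges of the effects were 0.13 with *Per1* and 0.12 with *Per2*, so neither virus had a much wider spread of effects.

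The difference between both effects was tested for each gene, using the standard errors of both sets. It was called for 54 genes, of which 20 had the *Per1* effect above the *Per2* effect (0.121%) and 34 below it (0.205%). By the adjusted p alone, without the size, the shares were 7.99% above and 9.57% below, so many small differences passed beside the few large ones. The signs of the effects were opposite for 37 of the 54 genes, and for 23 of these both effects also passed the adjusted p. For 26 of the 54, neither virus alone reached a call. The genes just inside the size limit were *Synpr* and *Hsd17b2* at 0.50 and *Rgs14* at -0.50, and those just outside were *Cldn25* at 0.497, *Hmox1* at 0.49 and *Bhlhe40* at -0.48.

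**Figure D1:**
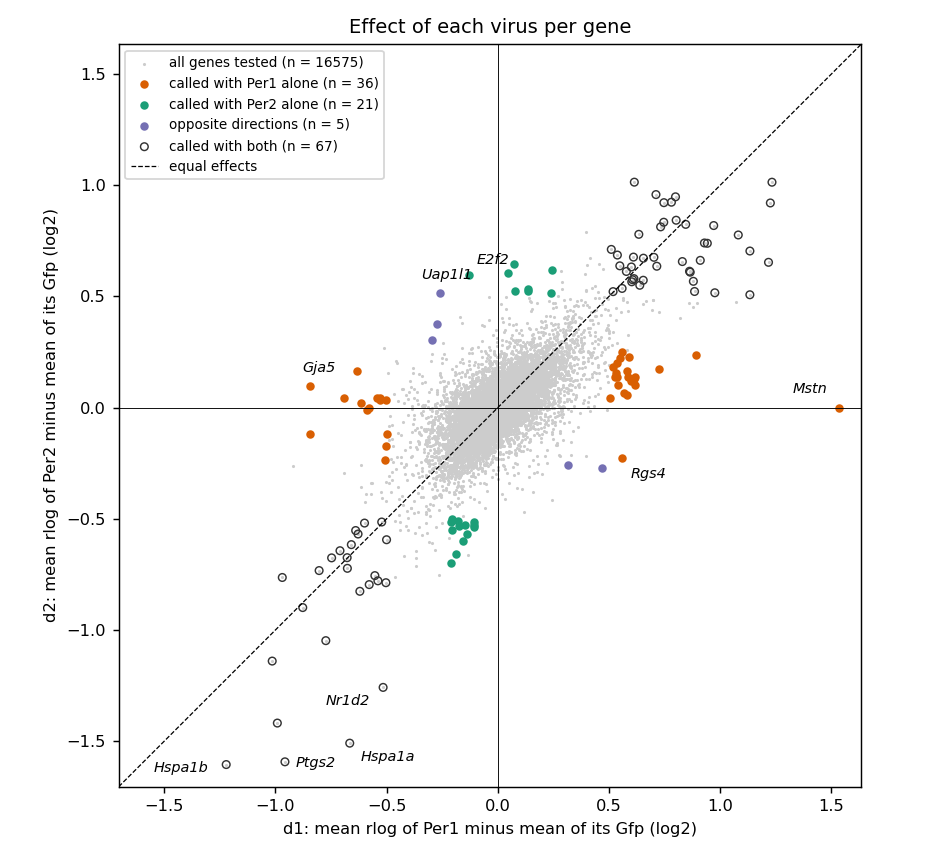
Each point is 1 gene, with the Per1 effect on the horizontal axis and the Per2 effect on the vertical axis, both in log2 units. Filled colours mark the 36 genes moved with Per1 alone, the 21 moved with Per2 alone and the 5 in opposite directions, open circles mark the 67 genes called with both viruses, and the dashed line marks equal effects; most called genes follow the line and Mstn lies farthest from it.

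A gene called with one virus and not with the other need not differ between them. Of the 134 genes called with exactly one virus, 103 had the other effect in the same direction at the adjusted p. The difference itself passed the adjusted p for 101 of the 134 and was called for 23. A stricter class was therefore used, in which the gene was called with one virus, the other effect was below 0.25 in size and the difference passed the adjusted p. By this definition 22 genes were raised with *Per1* alone (0.133%), 14 lowered with *Per1* alone (0.0845%), 8 raised with *Per2* alone (0.0483%) and 13 lowered with *Per2* alone (0.0784%). The 13 became 8 without *Gfp* library 1 of the *Per2* set, and the 8 raised became 15 when the *Per2* effects were rescaled to the spread of the *Per1* effects. Small effects of the other virus remained in these classes. The *Per2* and *Gfp* libraries did not overlap for 10 of the 22 genes and 2 of the 14, against 30.8% of all genes, and the *Per1* and *Gfp* libraries did not overlap for 4 of the 8 and 6 of the 13, against 35.3%.

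Among the 16575 genes compared, the largest difference belonged to *Mstn*, which encodes myostatin, a secreted TGF-beta family ligand that limits muscle mass. *Mstn* mRNA content was 9.64, 9.65, 9.73, 9.55 and 9.69 with *Gfp* and 11.28, 11.02, 11.23, 11.22 and 11.18 with *Per1*. In the *Per2* set it was 10.47, 10.32, 10.62, 10.49 and 10.60 with *Gfp* and 10.65, 10.48, 10.59, 10.31 and 10.48 with *Per2*. Every *Per1* library was above every control of its set, while the *Per2* and *Gfp* libraries overlapped fully. The *Per1* effect was 1.54 (SE 0.05), the *Per2* effect was 0.00 (SE 0.06), and the difference was 1.54 with a 95% interval of 1.37 to 1.70 and an adjusted p of 6.89e-13 (limma). None of the other 22 tested members of the myostatin, activin and BMP list had a called difference. At the adjusted p, 6 of the 23 had a *Per1* effect below the *Per2* effect and 1 above it, against 9.57% and 7.99% of all genes. Among the 6 was the activin receptor gene *Acvr1b* (0.01 and 0.23). The inhibitory gene *Smad7* fell by 0.68 with both viruses, with an interval of -0.16 to 0.15 for the difference, and *Grem1*, a BMP antagonist, fell by 0.63 and 0.57. The 250 bases before the *Mstn* start, chr1:53061390-53061639 on the plus strand of GRCm38.p6 from RefSeq, are shown because this gene carried the largest difference among the genes compared, with a TATA box (TATAAA, searched on both strands, found in 13.0% of all 27025 promoter windows) in capitals at position -29 from the start.
Mstn: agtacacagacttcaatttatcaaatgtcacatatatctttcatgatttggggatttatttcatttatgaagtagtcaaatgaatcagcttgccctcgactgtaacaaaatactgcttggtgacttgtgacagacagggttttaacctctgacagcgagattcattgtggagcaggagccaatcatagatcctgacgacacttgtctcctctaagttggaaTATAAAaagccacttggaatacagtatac

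Among the other genes raised with *Per1* alone, *Stc1*, the glycoprotein hormone stanniocalcin, was 10.06, 9.99, 9.98, 9.97 and 9.96 with *Gfp* and 10.86, 10.83, 10.93, 10.93 and 10.87 with *Per1*. It was 10.08, 10.27, 10.11, 10.19 and 10.06 with *Gfp* and 10.23, 10.33, 10.41, 10.42 and 10.50 with *Per2*. The *Per1* groups were wide apart and the *Per2* groups overlapped slightly, with effects of 0.89 and 0.24 and a difference of 0.66 (SE 0.06, adjusted p = 5.07e-08, limma). *Rgs4* and *Rgs8*, which speed the shut-off of G protein signals, had *Per1* effects of 0.56 and 0.62 against -0.23 and 0.10 with *Per2*. The mean level of *Rgs8* was 7.03 in the *Per1* set and 5.24 in the *Per2* set, near the filter limit. Whether this low level drew its *Per2* effect toward 0 was not tested. *Serpinb6d*, an intracellular serpin, had effects of 0.72 and 0.17, *Pm20d1*, a secreted enzyme of N-acyl amino acids, 0.62 and 0.14, *Cldn1*, a tight junction protein, 0.60 and 0.12, and the chemokine *Ccl9* 0.61 and 0.13. Of the myogenic genes, *Myf5*, the regulator of early myoblasts, belonged here with 0.53 and 0.14, as did *Vgll2*, a cofactor of TEAD factors in muscle, with 0.53 and 0.14. The effect of *Per2* on *Ccl9* had the widest error of these, 0.10, and its interval for the difference ran from 0.24 to 0.73.

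Genes lowered with *Per1* alone included channel and junction proteins. *Gja5*, a gap junction connexin, was 11.82, 11.70, 11.68, 11.52 and 11.62 with *Gfp* and 10.90, 10.72, 10.92, 10.83 and 10.75 with *Per1*. In the *Per2* set it was 11.58, 11.77, 11.71, 11.73 and 11.64 with *Gfp* and 11.74, 11.77, 11.78, 11.76 and 11.86 with *Per2*. It fell below all controls with *Per1* and lay among or just above them with *Per2*, with effects of -0.85 and 0.10 and a difference of -0.94 (95% interval -1.07 to -0.82, adjusted p = 6.90e-11, limma). *Cacna2d2*, an auxiliary subunit of voltage-gated calcium channels, had effects of -0.85 and -0.12, at mean levels of 10.32 in the *Per1* set and 7.96 in the *Per2* set. *Jakmip1*, a microtubule-associated protein, had -0.69 and 0.04, *Hsd17b13*, a lipid droplet protein, -0.63 and 0.16, and *Gdf5*, a BMP family ligand, -0.62 and 0.02. *Mxd1*, a partner of MAX that opposes MYC, had -0.58 and -0.00, and *Col25a1*, a transmembrane collagen, -0.59 and -0.01. For each of the genes named in this paragraph, the *Per2* and *Gfp* libraries overlapped.

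The genes moved with *Per2* alone were fewer. *E2f2*, a cell cycle transcription factor, was 13.64, 13.60, 13.56, 13.53 and 13.57 with *Gfp* and 14.20, 14.17, 14.16, 14.21 and 14.15 with *Per2*. In the *Per1* set it was 14.70, 14.77, 14.59, 14.63 and 14.61 with *Gfp* and 14.55, 14.51, 14.52, 14.56 and 14.53 with *Per1*. It rose clear of its controls with *Per2* and lay slightly below them with *Per1*, with effects of 0.60 and -0.13 and a difference of -0.73 (SE 0.04, adjusted p = 3.19e-13, limma). *Loxl2*, an enzyme that crosslinks collagen, had a *Per2* effect of 0.65 against 0.07 with *Per1*, *Dpt*, a matrix protein, 0.62 against 0.24, *Aatk*, a kinase, 0.60 against 0.05, and *Stab2*, a scavenger receptor, 0.53 against 0.14. Of those lowered, *Hmox1*, the heme-degrading enzyme, had -0.70 with *Per2* and -0.21 with *Per1*, and both effects passed the adjusted p. The same held for 11 of the 13 genes of this class, so most of them were lower with *Per1* too, by less. *Ptp4a1*, a phosphatase, had -0.66 and -0.19, *Serpinc1*, which encodes antithrombin, -0.57 and -0.14, *Slc19a2*, a thiamine transporter, -0.53 and -0.17, and *Atf3*, a stress-induced transcription factor, -0.53 and -0.15. None of the 13 genes lowered with *Per2* alone had an opposite sign with *Per1*, and none had a difference of 0.5 or more.

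**Figure D2:**
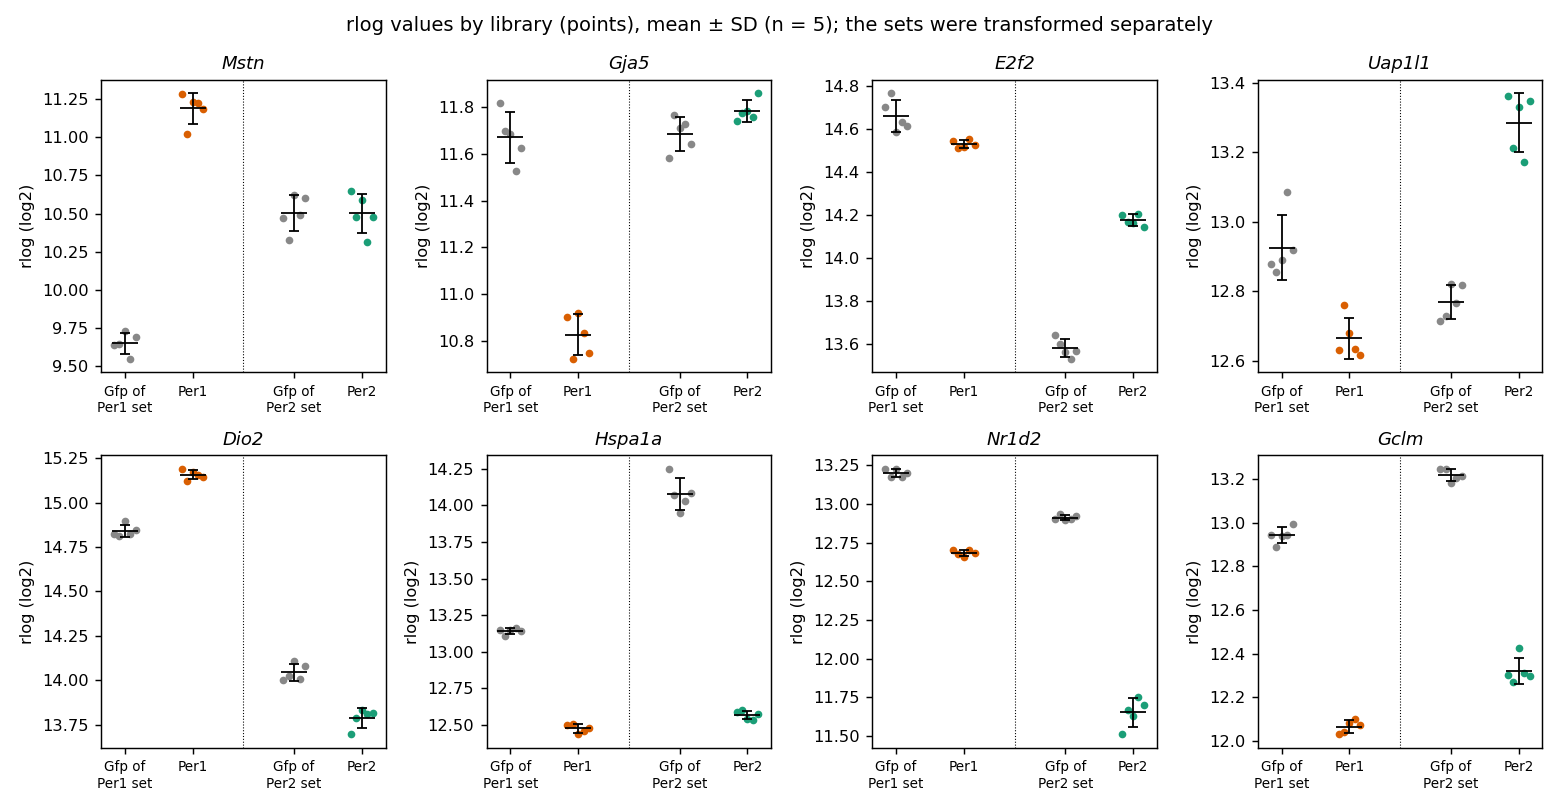
rlog values (log2) of 8 genes in each library, with points for libraries and black bars for the mean and SD of 5 libraries; the dotted line separates the sets, which were transformed separately, and each panel has its own vertical scale. Mstn and Gja5 are displaced with Per1 only, E2f2 mainly with Per2, Uap1l1 and Dio2 in opposite directions, and Hspa1a, Nr1d2 and Gclm downward with both.

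Opposite directions at a size of at least 0.25 with each virus, with all 3 adjusted p-values passing, were seen for 5 genes. *Dio2*, the deiodinase that activates thyroid hormone, and *Fam135b* were higher with *Per1* and lower with *Per2* (2 genes, 0.0121%). *Uap1l1*, *Bdh1* and *4930447F24Rik* were lower with *Per1* and higher with *Per2* (3 genes, 0.0181%). *Dio2* was 14.82, 14.81, 14.90, 14.82 and 14.85 with *Gfp* and 15.19, 15.12, 15.17, 15.15 and 15.14 with *Per1*. It was 14.00, 14.02, 14.11, 14.01 and 14.08 with *Gfp* and 13.69, 13.79, 13.83, 13.81 and 13.82 with *Per2*. The groups were separate in both sets and in opposite order, with effects of 0.32 and -0.26 and a difference of 0.57 (SE 0.03, adjusted p = 2.44e-11, limma).

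*Uap1l1*, a relative of the enzyme that makes UDP-N-acetylglucosamine, was 12.88, 12.86, 12.89, 13.09 and 12.92 with *Gfp* and 12.63, 12.76, 12.68, 12.64 and 12.62 with *Per1*. With *Per2* it was 13.36, 13.21, 13.33, 13.17 and 13.35 against 12.72, 12.73, 12.82, 12.77 and 12.82 with *Gfp*. It was the only gene of the 5 that was called with one of the viruses, with effects of -0.26 and 0.51 and a difference of -0.78 (95% interval -0.89 to -0.66, adjusted p = 6.44e-11, limma). *Bdh1*, a mitochondrial enzyme of ketone body metabolism, had effects of -0.27 (SE 0.10) and 0.38 (SE 0.07), and its *Per1* and *Gfp* libraries overlapped. *Fam135b* had 0.47 (SE 0.08) and -0.27 (SE 0.06). With the adjusted p alone and no size limit, 276 genes (1.67%) had opposite directions, 88 of them higher with *Per1* and 188 lower, against 4504 that passed with both viruses in the same direction. Because 0.25 is close to both *Per2* effects, *Dio2* and *Fam135b* left the class in fits without single libraries of the *Per2* set. The count was 0 without *Gfp* library 3 or *Per2* library 1, and 1 without *Gfp* library 5 or *Per2* library 4.

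Further genes with opposite signs had one of the effects below the limit. *Rgs4*, named above, was 7.32, 7.12, 7.30, 7.27 and 7.30 with *Gfp* and 7.02, 7.09, 7.11, 6.91 and 7.04 with *Per2*, below its controls by 0.23. *Ckmt2*, the mitochondrial creatine kinase of striated muscle, had effects of 0.24 and -0.42, a difference of 0.66. *Mustn1*, a small musculoskeletal protein, had -0.46 and 0.21, and *Ncf1*, a subunit of the phagocyte NADPH oxidase, had -0.45 and 0.20. *Scx*, a transcription factor of tendon cells, had -0.30 and 0.24, and *Col13a1*, a transmembrane collagen of the neuromuscular junction, -0.49 and 0.16. In each of these 6 genes, the *Per* and *Gfp* libraries were separate in both sets.

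**Figure D3:**
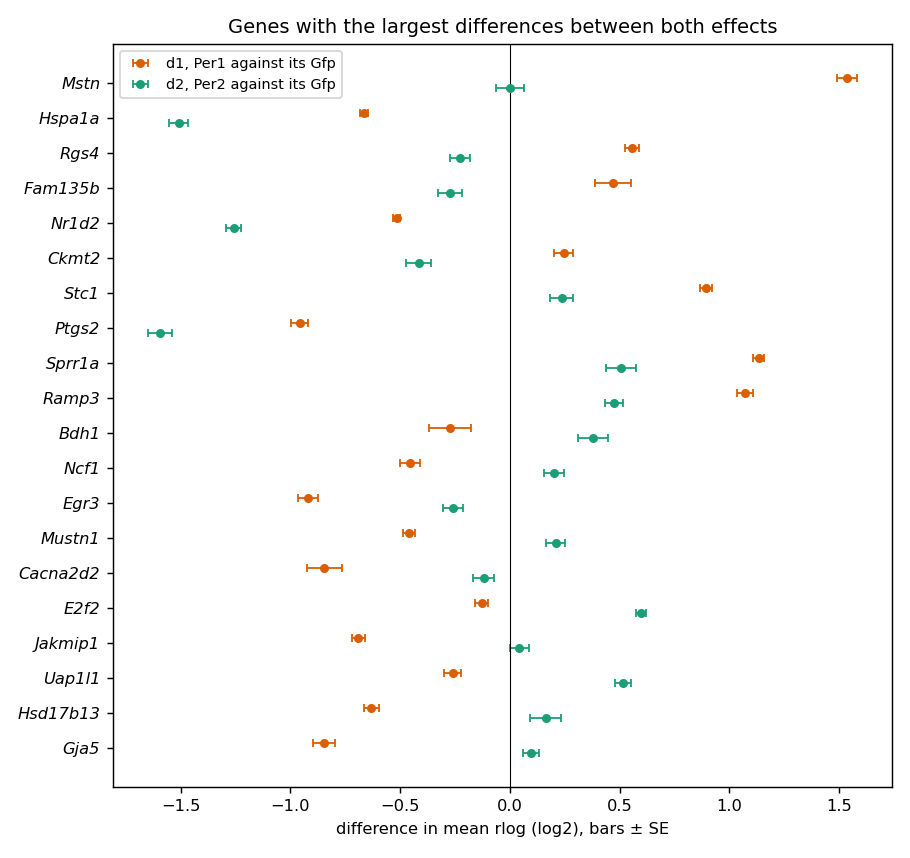
Per1 effects (orange) and Per2 effects (green) with their SE, in log2 units, of the 10 named genes with the most positive and the 10 with the most negative difference. Mstn, at the top, has a difference of 1.54 and Gja5, at the bottom, of -0.94; Hspa1a, Nr1d2 and Ptgs2 fell with both viruses and further with Per2.

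Of the 22 clock genes of the activator, receptor, repressor and D-box lists, 13 passed the adjusted p in the same direction with both viruses, and the difference passed for 11. Over all 16575 genes these counts were 4504 and 2911. *Nr1d2*, which encodes REV-ERB beta, was 13.23, 13.18, 13.22, 13.17 and 13.20 with *Gfp* and 12.70, 12.68, 12.66, 12.70 and 12.69 with *Per1*. It was 12.90, 12.93, 12.90, 12.90 and 12.92 with *Gfp* and 11.51, 11.66, 11.63, 11.75 and 11.70 with *Per2*. Both *Per* groups lay below all of their controls, and the *Per2* effect of -1.26 exceeded the *Per1* effect of -0.52, a difference of 0.74 (SE 0.04, adjusted p = 6.90e-11, limma). *Nr1d1*, for REV-ERB alpha, fell by 0.77 with *Per1* and by 1.05 with *Per2*. Genes repressed by these receptors were higher, *Bmal1* by 0.41 and 0.67 and *Npas2*, the CLOCK paralog, by 0.46 and 0.64, the *Per2* effect being the larger at the adjusted p for each (2.02e-07 and 0.0185).

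Of the 9 activators and nuclear receptors tested, 2 had a *Per1* effect above the *Per2* effect at the adjusted p and 3 below it, against 7.99% and 9.57% of all genes. *Bmal2*, *Rora* and *Rorb* were among those that passed in neither direction. Of the 7 repressors, 1 was above and 4 were below, against the same shares. *Cry1*, the partner of PER proteins in repression, rose by 0.75 and 0.92 and *Cry2* was higher by 0.28 and 0.30. *Per3*, a paralog of the overexpressed genes, had effects of -0.23 and -0.44. *Clock* had opposite signs, -0.07 and 0.13, both passing the adjusted p.

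*Bhlhe40* and *Bhlhe41* encode DEC1 and DEC2, repressors that compete for E-boxes. *Bhlhe40* was 14.57, 14.46, 14.47, 14.46 and 14.47 with *Gfp* and 14.18, 14.13, 14.21, 14.09 and 14.11 with *Per1*. It was 13.93, 13.86, 13.88, 13.87 and 13.87 with *Gfp* and 14.03, 14.03, 14.04, 13.98 and 14.04 with *Per2*. The groups were separate in both sets, below the controls with *Per1* and above them with *Per2*, with effects of -0.34 and 0.14 and a difference of -0.48 (SE 0.03, adjusted p = 6.90e-11, limma), just under the size limit. *Bhlhe41* had 0.02 and 0.24. The D-box factors were closer together: *Dbp* had -0.17 and -0.14, *Nfil3* 0.10 and 0.12, and of the 6 genes of that list 1, *Tef*, differed at the adjusted p (-0.16 and -0.26). Of all 16575 genes, 2911 did.

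Promoter windows were read from RefSeq for 14 of the 16 activators, nuclear receptors and repressors. The E-box CACGTG, which is the same on both strands, lay within the 250 bases before the start of 3 of these 14 genes (21.4%), *Cry1*, *Bhlhe41* and *Ciart*, against 6.05% of all 27025 windows, and the D-box TTATGTAA in 2 (14.3%), against 0.862%. None of the 13 windows found for genes with the *Per1* effect above, nor of the 25 for genes with it below, held CACGTG or TTATGTAA. A match is a description of the letters and not evidence of binding. The window of *Cry1*, the clock repressor that rose most with both viruses, is chr10:85185055-85185304 on the minus strand of GRCm38.p6, with the E-box in capitals at position -60.
Cry1: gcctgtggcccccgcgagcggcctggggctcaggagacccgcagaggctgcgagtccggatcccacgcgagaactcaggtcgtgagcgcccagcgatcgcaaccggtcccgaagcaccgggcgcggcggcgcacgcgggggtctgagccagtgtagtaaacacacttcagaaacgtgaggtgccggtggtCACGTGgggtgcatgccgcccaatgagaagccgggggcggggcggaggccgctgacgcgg

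**Figure D4:**
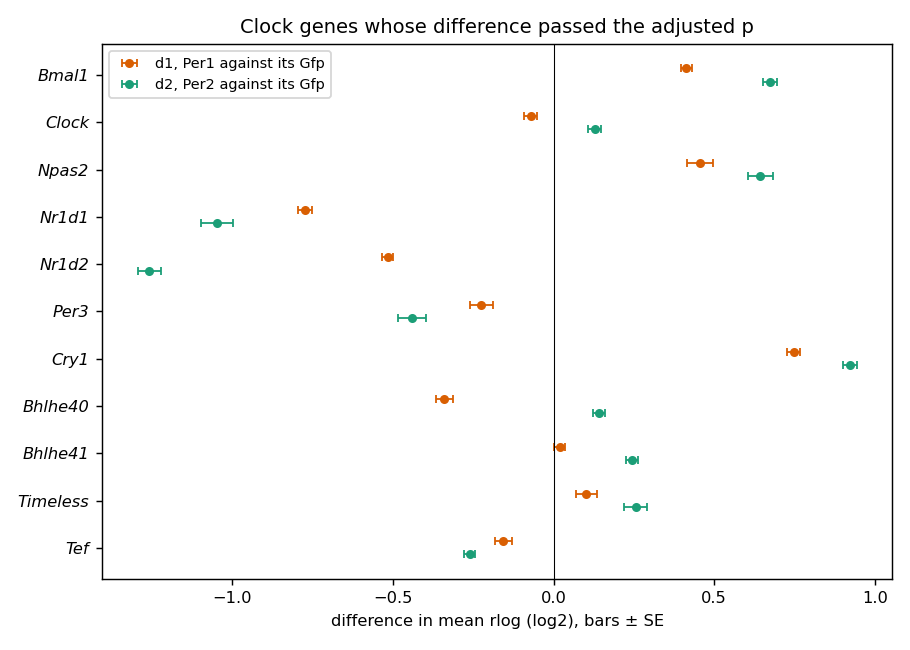
Per1 effects (orange) and Per2 effects (green) with their SE, in log2 units, of the 11 clock genes whose difference passed the adjusted p, from activators and receptors at the top through repressors to the D-box factor Tef at the bottom. The Per2 effect is the larger for Nr1d1, Nr1d2, Bmal1, Npas2, Cry1 and Per3, and Bhlhe40 and Clock have opposite signs.

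Most heat shock genes were lower with both viruses, and lower with *Per2* than with *Per1* for several inducible members. *Hspa1a* and *Hspa1b* encode nearly identical inducible HSP70 chaperones, so their reads may have been split between them. *Hspa1a* was 13.15, 13.11, 13.15, 13.16 and 13.14 with *Gfp* and 12.50, 12.51, 12.43, 12.46 and 12.48 with *Per1*. It was 14.25, 14.07, 13.95, 14.03 and 14.08 with *Gfp* and 12.59, 12.60, 12.54, 12.53 and 12.57 with *Per2*. All *Per* libraries were below their controls, with effects of -0.67 and -1.51, a difference of 0.84 (SE 0.05, adjusted p = 1.85e-10, limma). *Hspa1b* fell with effects of -1.22 and -1.61, a smaller difference of 0.38 (adjusted p = 4.06e-06, limma). Of the 21 genes of the list, 20 were lower with *Per1* and 18 with *Per2* at the adjusted p, where 24.8% and 20.1% of all genes were, with medians of -0.24 and -0.31. The difference passed the adjusted p with *Per2* lower for 9, including *Hsph1*, a nucleotide exchange factor (-0.58 and -0.80), *Dnajb1*, the HSP40 partner (-0.37 and -0.64), and *Hspb1* (-0.16 and -0.36). It passed in the other direction for 1, *Hspb7*, a small chaperone of striated muscle (-0.43 and 0.08). Over all genes these shares were 7.99% with *Per2* lower and 9.57% with *Per2* higher. The transcription factor genes *Hsf1* and *Hsf2* had -0.07 and 0.00 with *Per1* and -0.01 and 0.03 with *Per2*.

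The upstream windows of *Hspa1a*, chr17:34972157-34972406, and *Hspa1b*, chr17:34959239-34959488, both on the minus strand of GRCm38.p6, are printed because these 2 genes gave unequal differences from almost the same promoter. They were identical at 247 of 250 positions compared without gaps. Capitals mark GAANNTTC, a pair of inverted heat shock units that is the same on both strands, at position -104. It occurred in 5 of the 16 windows found for the list (31.2%) and in 6.78% of all windows.
Hspa1a: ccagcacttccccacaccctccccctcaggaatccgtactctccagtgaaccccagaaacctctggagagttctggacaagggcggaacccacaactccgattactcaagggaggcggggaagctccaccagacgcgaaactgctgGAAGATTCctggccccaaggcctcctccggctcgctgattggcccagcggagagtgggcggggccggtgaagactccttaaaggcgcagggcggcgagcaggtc
Hspa1b: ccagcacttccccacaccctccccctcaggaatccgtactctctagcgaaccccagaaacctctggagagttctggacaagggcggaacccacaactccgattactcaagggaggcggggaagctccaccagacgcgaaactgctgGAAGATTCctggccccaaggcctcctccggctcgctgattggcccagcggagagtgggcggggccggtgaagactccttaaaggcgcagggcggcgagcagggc

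In stress pathways beyond heat shock, the *Per2* effects also leaned below the *Per1* effects. Of 24 genes of the unfolded protein and integrated stress response, the *Per1* effect was above the *Per2* effect at the adjusted p for 12 and below for 1, against 7.99% and 9.57% of all genes, with medians of 0.04 and -0.10. Among the 12 were *Gdf15*, a secreted stress cytokine (0.16 and -0.24), *Asns*, asparagine synthetase (0.02 and -0.26), *Sesn2* (0.08 and -0.20), *Trib3* (0.08 and -0.19), *Phgdh*, of serine synthesis (-0.01 and -0.23), and *Atf4*, a transcription factor of this response (-0.03 and -0.15). The chaperone genes of the endoplasmic reticulum differed less, *Hspa5* with -0.05 and -0.08 and a difference of 0.03 (95% interval -0.02 to 0.09). Of 20 p53 targets, 10 were above and 3 below, among the first *Ccng1*, cyclin G (0.31 and 0.04), *Btg2*, an antiproliferative gene (0.36 and 0.09), *Dcxr* (0.56 and 0.25) and *Plk2*, a stress kinase (-0.06 and -0.45), and among the others *Cdkn1a*, the inhibitor p21 (-0.02 and 0.15). *Mdm2*, the p53 ligase, had -0.11 and -0.30. At the adjusted p, 8 of the 20 p53 targets were higher and 5 lower with *Per1*, and 6 were higher and 7 lower with *Per2*. Of the 24 stress response genes, 11 were higher and 3 lower with *Per1*, and 7 were higher and 14 lower with *Per2*. Over all genes these shares were 23.6% and 24.8% with *Per1*, and 22.6% and 20.1% with *Per2*.

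The NRF2 targets, which guard against oxidants, were lower with both viruses. Of 24, 18 were lower with *Per1* and 21 with *Per2* at the adjusted p, against 24.8% and 20.1% of all genes, with medians of -0.23 and -0.30. The difference passed with *Per2* lower for 7 and higher for 1, against 7.99% and 9.57% of all genes, and the 7 included *Hmox1*, *Gsta1* (-0.37 and -0.71) and *Txnrd1* (-0.41 and -0.53). *Gclm*, a subunit of the enzyme that begins glutathione synthesis, was 12.95, 12.89, 12.94, 12.94 and 12.99 with *Gfp* and 12.03, 12.04, 12.08, 12.10 and 12.07 with *Per1*. It was 13.25, 13.25, 13.18, 13.21 and 13.21 with *Gfp* and 12.30, 12.27, 12.42, 12.31 and 12.30 with *Per2*. These groups were far apart in both sets by nearly the same amount, -0.88 and -0.90, and the 95% interval of the difference was -0.05 to 0.09. *Srxn1*, sulfiredoxin, likewise fell by 0.52 and 0.51, with an interval of -0.08 to 0.07.

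Immediate early and inflammatory genes were mixed. *Ptgs2*, the inducible cyclooxygenase, was 13.61, 13.56, 13.76, 13.66 and 13.67 with *Gfp* and 12.81, 12.62, 12.71, 12.64 and 12.68 with *Per1*. It was 13.90, 13.78, 13.53, 13.70 and 13.80 with *Gfp* and 12.25, 12.14, 12.15, 12.07 and 12.14 with *Per2*. It fell below every control in both sets and further with *Per2*, by 0.96 and 1.59 (difference 0.64, SE 0.07, adjusted p = 1.58e-07, limma). *Egr3*, a transcription factor of the early growth response, went the other way, with -0.92 and -0.26 (difference -0.66, adjusted p = 2.53e-08, limma), as did *Egr2* (-0.57 and -0.34) and *Egr1* (-0.48 and -0.29) at the adjusted p. *Myc* had -0.28 and -0.54. Of 21 immediate early genes, 17 were lower with *Per1* and 16 with *Per2* at the adjusted p, against 24.8% and 20.1% of all genes, and 3 had the *Per1* effect above and 4 below, against 7.99% and 9.57%. *Cxcl1*, a neutrophil chemokine, fell with effects of -1.01 and -1.14, with an interval of 0.02 to 0.23 and an adjusted p of 0.0866 (limma) for the difference. Of 18 chemokines listed, 12 passed the filter and were tested. Of these, 3 were above, *Ccl5* (0.98 and 0.52), *Ccl9* and *Cxcl12* (0.15 and -0.07), and 0 below, against 7.99% and 9.57% of all genes.

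Interferon-stimulated genes were higher with both viruses and made up much of what the viruses shared. Of the 42 genes raised by both, 23 were on the interferon-stimulated, GTPase or MHC lists. All 44 interferon-stimulated genes tested were higher with *Per1* and 43 with *Per2* at the adjusted p, against 23.6% and 22.6% of all genes, with medians of 0.54 and 0.49, and 24 and 19 of them rose. *Oas2*, a sensor of double-stranded RNA, was 8.29, 7.75, 7.86, 7.92 and 7.74 with *Gfp* and 9.04, 9.07, 9.22, 9.17 and 9.20 with *Per1*. It was 9.12, 8.82, 8.60, 9.03 and 9.10 with *Gfp* and 10.09, 10.17, 10.11, 9.24 and 10.12 with *Per2*. The groups were separate in both sets, *Per2* library 4 lying nearest to its controls, with effects of 1.23 and 1.01 and an interval of -0.15 to 0.59 for the difference.

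The same library was low for other genes of the list, and the library median of the 44 genes was 0.33 below the mean of the *Per2* group there. Leaving *Per2* library 4 out, 27 of the 44 genes rose with *Per2*, with a median of 0.58. The *Per1* effect was above the *Per2* effect at the adjusted p for 8 of the 44, among them *Ifit1* (1.13 and 0.70), *Oasl1* (0.82 and 0.40), *Bst2*, a tethering factor of viruses (0.88 and 0.45), and *Ifih1*, the RNA sensor MDA5 (0.86 and 0.47), and below for 0, against 7.99% and 9.57% of all genes. This count was 4 without *Gfp* library 4 or 5 of the *Per2* set and 5 without *Per2* library 1, and without *Per2* library 4 it was 7, with 2 genes below. None of the 44 differences reached 0.5, but *Ifi27l2a*, an interferon-inducible gene outside the list that was picked after its values were seen, rose by 1.22 and 0.65, a called difference of 0.56 (SE 0.11, adjusted p = 5.72e-04, limma). Against 7.99% above and 9.57% below of all genes, 0 of 17 interferon-inducible GTPases differed at the adjusted p in either direction. *Gbp7* rose by 0.85 and 0.82 with an interval of -0.22 to 0.26. *Gbp5*, alone among them, fell with both viruses (-0.97 and -0.76).

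MHC class I genes and the immunoproteasome, which present peptides to T cells, were higher in all 19 genes with *Per1* and in 17 with *Per2* at the adjusted p, against 23.6% and 22.6% of all genes, and the *Per1* effect was the larger for 8 and the smaller for 0, against 7.99% and 9.57%. *B2m*, the light chain of MHC class I, was 15.62, 15.56, 15.61, 15.63 and 15.62 with *Gfp* and 15.98, 16.08, 16.03, 16.02 and 16.03 with *Per1*, an effect of 0.42. It was 15.60, 15.58, 15.59, 15.72 and 15.68 with *Gfp* and 15.91, 15.87, 15.85, 15.82 and 15.88 with *Per2*, an effect of 0.23. Both sets were separate, by less with *Per2* (difference 0.19, SE 0.03, adjusted p = 0.00025, limma). *Tap1*, the peptide transporter, had 0.73 and 0.43. The medians of the list were 0.38 and 0.25, where those of all genes tested were -0.00 and 0.00.

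Promoter windows were found for 28 of the 42 genes raised by both viruses, and 15 of them (53.6%) held the interferon-stimulated response element, searched as GAAA and GAAA with any 2 bases between them, on either strand, against 3.04% of all windows. It was in 0 of the 13 windows of genes with the *Per1* effect above and in 1 of the 25 of genes with it below. The windows of *Isg15*, a ubiquitin-like modifier that rose by 1.08 and 0.78, at chr4:156200819-156201068 on the minus strand, and of *Gbp7*, at chr3:142530086-142530335 on the plus strand (GRCm38.p6), are shown as examples of the shared response. The element is in capitals, in 3 overlapping matches at positions -78, -72 and -66 in *Isg15* and in 1 match on the opposite strand at -53 in *Gbp7*.
Isg15: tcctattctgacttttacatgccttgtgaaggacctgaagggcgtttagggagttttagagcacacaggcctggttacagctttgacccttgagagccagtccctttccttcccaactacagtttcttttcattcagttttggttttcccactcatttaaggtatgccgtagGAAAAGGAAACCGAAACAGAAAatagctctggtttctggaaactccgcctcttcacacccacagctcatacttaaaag
Gbp7: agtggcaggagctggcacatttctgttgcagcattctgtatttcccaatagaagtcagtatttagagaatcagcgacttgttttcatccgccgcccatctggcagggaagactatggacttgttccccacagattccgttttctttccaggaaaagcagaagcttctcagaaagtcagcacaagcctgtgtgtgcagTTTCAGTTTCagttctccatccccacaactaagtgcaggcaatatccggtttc

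Muscle structural genes leaned lower with *Per1*. Of 38 sarcomere and contraction genes, 32 were lower with *Per1* and 14 with *Per2* at the adjusted p, against 24.8% and 20.1% of all genes, with medians of -0.18 and -0.09, and none was called with either. Without *Gfp* library 3 of the *Per2* set the *Per2* median was -0.05. The *Per1* effect was below the *Per2* effect at the adjusted p for 13 and above for 2, against 9.57% and 7.99% of all genes. The number above was 0 without *Gfp* library 11, *Per1* library 11 or *Per1* library 13 of the *Per1* set, or without *Gfp* library 3, *Per2* library 4 or *Per2* library 5 of the *Per2* set, 1 without some others and up to 3, while the number below ranged from 10 to 16. *Myh7*, the slow myosin heavy chain, had -0.19 and 0.19, *Myh3*, the embryonic one, -0.18 and 0.11, *Myl2*, a regulatory light chain, -0.38 and -0.07, and *Casq2*, a calcium-binding protein of the sarcoplasmic reticulum, -0.23 and 0.03. The 2 above were *Myh1* (-0.29 and -0.44) and *Myh8* (-0.10 and -0.31), fast and perinatal heavy chains. Summed over the 8 myotube markers, the level was 21.21 to 21.26 with *Gfp* and 21.08 to 21.13 with *Per1*, and 20.75 to 20.87 with *Gfp* and 20.75 to 20.80 with *Per2*. In bulk samples, fewer myotubes and less of these mRNAs per myotube cannot be told apart. The summed level of the 5 proliferating myoblast markers overlapped between groups in both sets, at 16.10 to 16.23 against 16.18 to 16.33 with *Per1* and 16.27 to 16.43 against 16.36 to 16.52 with *Per2*. That of the 3 fibro-adipogenic markers, *Pdgfra*, *Ly6a* and *Dcn*, was above the controls in both sets. With each virus 2 of these 3 were higher at the adjusted p, against 23.6% of all genes with *Per1* and 22.6% with *Per2*. The part of these markers in the results was not tested.

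Among 20 myogenic factors and fusion genes, 7 had the *Per1* effect below and 3 above, against 9.57% and 7.99% of all genes. *Myod1*, the master regulator, had -0.10 and 0.07, *Myog* -0.12 and 0.06, *Mef2c* -0.39 and -0.11, *Mymx*, the fusion micropeptide, -0.28 and -0.02, and *Cav3*, the muscle caveolin, -0.24 and 0.09. Above were *Myf5*, *Jam3* and *Myf6*, the last with 0.18 and -0.29. Of 25 atrophy-associated genes, 3 were above and 3 below, close to those shares. The ubiquitin ligase genes were *Fbxo32*, with 0.15 and 0.07, and *Trim63*, with -0.18 and 0.00 and a difference of -0.19 (adjusted p = 9.01e-05, limma). *Sln*, sarcolipin, had 0.42 and 0.14, and *Bnip3*, a mitophagy receptor, 0.29 and 0.56.

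Cholesterol genes were higher with *Per2*. Of 21, 20 were higher with *Per2* at the adjusted p, and 13 were higher and 2 lower with *Per1*, where 22.6% of all genes were higher with *Per2* and 23.6% with *Per1*, with medians of 0.20 and 0.08. The *Per1* effect was below the *Per2* effect for 13 and above for 0, against 9.57% and 7.99% of all genes. *Idi1*, of isoprenoid synthesis, had -0.04 and 0.21, *Dhcr7*, of the last step of synthesis, -0.15 and 0.15, and *Stard4*, a sterol carrier, 0.21 and 0.39. None was called with either virus. The matrix list behaved likewise in part, 9 of 29 genes being below and 1 above, with *Lox*, lysyl oxidase, at -0.25 and 0.20 and *Col6a2* at 0.06 and 0.29 beside *Loxl2*. None of 23 oxidative phosphorylation genes differed at the adjusted p, against 7.99% above and 9.57% below of all genes, and the medians of the 23 were -0.01 and -0.02.

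**Figure D5:**
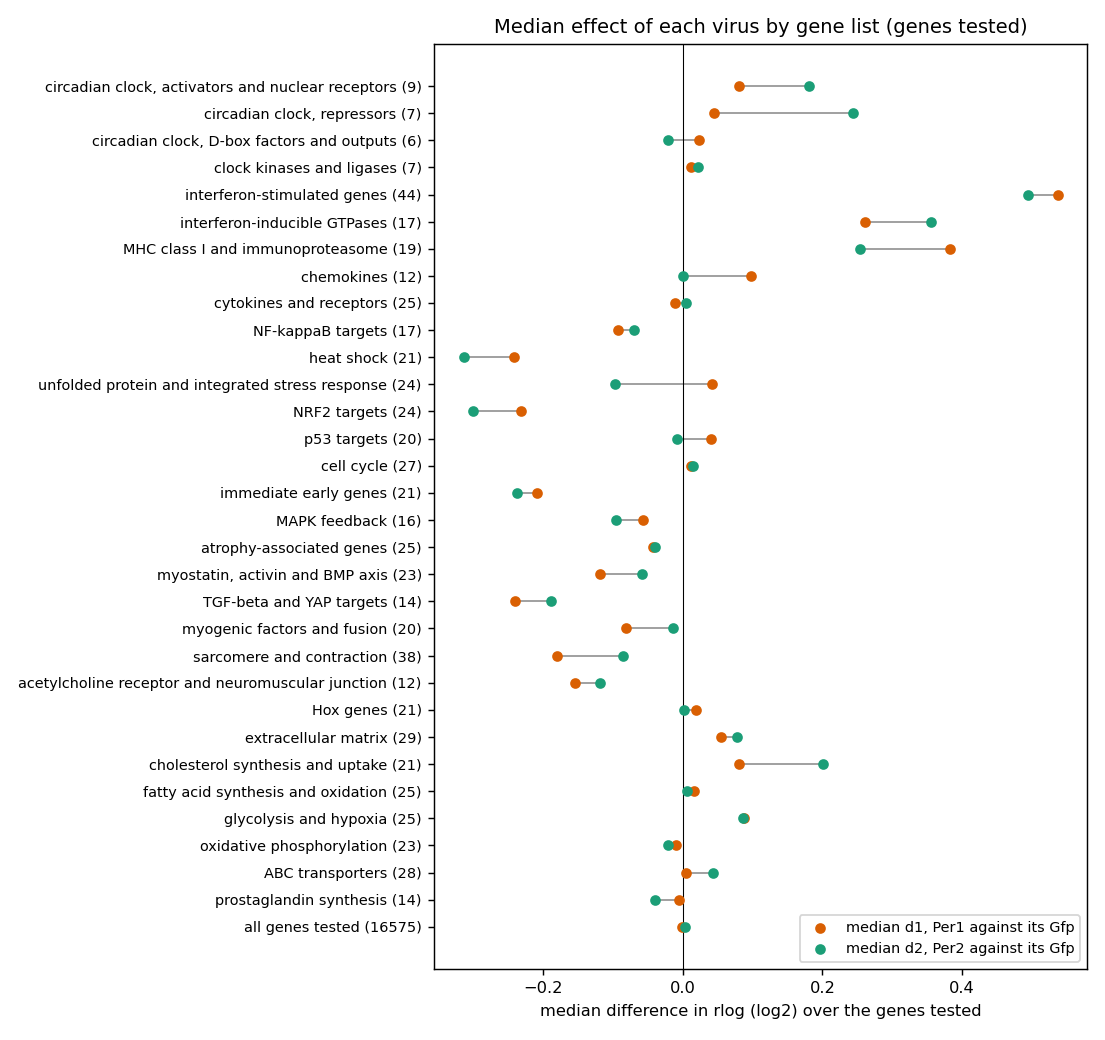
Median Per1 effect (orange) and Per2 effect (green), in log2 units, over the tested genes of each list, with the number tested in brackets. Interferon-stimulated genes have the highest medians (0.54 and 0.49) and heat shock and NRF2 targets low ones with both viruses, stress response genes have medians of 0.04 and -0.10, and the medians of all genes tested lie at 0.

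Of the 67 genes called with both viruses, the difference passed the adjusted p for 23 and was called for 5, and requiring both calls itself limits how far the sizes can differ. Over the 42 genes raised by both, the median ratio of the *Per2* to the *Per1* effect was 0.948 (0.448 to 1.65), and the difference passed the adjusted p for 12, with *Per1* larger in 8 and *Per2* larger in 4. Over the 25 lowered by both, the median ratio was 1.12 (0.788 to 2.44), and in all 11 that passed the *Per2* effect was the larger. *Efr3b*, a plasma membrane scaffold of lipid kinase, was among them with -0.99 and -1.42. *Sprr1a*, a cornified envelope protein induced in stressed cells, and *Ramp3*, an accessory protein of calcitonin-type receptors, were the reverse, with 1.13 and 0.51, and 1.07 and 0.47, the second *Ramp3* effect being below the limit for a call.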

How the data were processed

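Poly(A) RNA sequencing of 20 libraries of C2C12 myotubes was analysed, 4 groups of 5 named by the sample labels, with each *Gfp* library assigned to a set by its number series. The authors aligned and counted the reads and deposited regularized log2 (rlog) values made with DESeq2, which were used as deposited. No counts were used, so the depth of the libraries is unknown and counting error could not be given. The build is GRCm39 in the study's methods and mm10 in the labels, which also differ from the methods on sequencing details. Gene symbols were taken from GENCODE M39, in which 51654 of 55335 IDs were found, 35 of them with an identical version. Promoters came from RefSeq (GRCm38.p6).

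Each set was fitted with limma 3.58.1 (R 4.3.3, trended prior). The difference of both effects had the SE of both fits combined in quadrature, Satterthwaite degrees of freedom and Benjamini-Hochberg adjustment over 16575 genes. It was tested on simulated data. Named genes were the 10 largest called differences each way, opposite genes, the 8 largest per virus and direction moved alone, the 8 largest and 5 most alike shared genes, and up to 4 per list, or the 2 of highest level where none was called. List members quoted beyond these were chosen after their values were seen. The gene lists and tests were chosen with earlier results of these data known. Library numbers were not used to pair the samples in the main fits. Alternatives were the filter (3 or none), centring, quantile normalization, no trend, 1 fit of all 4 groups, rescaling of the *Per2* effect, other size limits, a block on library number, and fits without each library in turn. Some items are not reported here.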

Additional observations from a re-analysis of the deposited data

Results flagged for a closer look

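In 4 of 84 groups of 5 libraries examined, 1 library lay apart from the other 4, and about 1 in 20 groups is marked by chance. These were *Rgs4* in *Gfp* library 2 of the *Per2* set (7.12), *Uap1l1* in *Gfp* library 15 of the *Per1* set (13.09), *Mustn1* in *Per2* library 1 (13.29) and *Bdh1* in *Gfp* library 1 of the *Per2* set (7.82).

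*Hoxb2*, a homeobox transcription factor, did not enter the comparison because its mean was below 5 in the *Per2* set. It was 7.13, 7.08, 7.09, 7.16 and 7.10 with *Gfp* and 9.64, 9.47, 9.53, 9.62 and 9.61 with *Per1*, a difference of 2.46, and between 3.31 and 3.40 in all 10 libraries of the *Per2* set, a difference of -0.03. It was the only one of 584 genes that passed the filter in one set alone to reach 0.5 in size, and this was not tested. Of the 21 *Hox* genes in the comparison, 1 differed at the adjusted p, *Hoxc11* (0.04 and -0.07), where 2911 of all 16575 genes did.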

How the results depend on the processing

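No difference of a named gene reversed under any alternative run. Of 106 named genes, 30 had a called difference and 28 kept it under every alternative that left the size limit at 0.5, while *Rgs8* and *Hspb7*, which lie at that limit, lost it under some. Among all genes with a called difference, quantile normalization kept 16 of the 20 with the *Per1* effect above and 33 of the 34 below. The size limit, with the rules tied to it, moved the counts most. With a limit of 1, 8 genes rose and 2 fell with *Per1*, 2 rose and 7 fell with *Per2*, the *Per1* effect was above for 1 and below for 0, 2 were raised and 0 lowered with *Per1* alone, 0 were raised and 0 lowered with *Per2* alone, and 0 and 0 went in opposite directions. With no limit these counts were 3916, 4105, 3754, 3332, 1325, 1586, 430, 662, 412, 327, 88 and 188, in the same order. The rules changed with the limit. At a limit of 1, the 0.25 for the other virus and for opposite directions became 0.5. With no limit, the other effect had to miss the adjusted p instead. The classes with no limit kept 6 of the 22 and 10 of the 14 genes moved with *Per1* alone. They kept 3 of the 8 and 2 of the 13 moved with *Per2* alone. Of the 2 raised with *Per1* alone at a limit of 1, 1 was among the 22. Rescaling the *Per2* effect to the spread of the *Per1* effect gave 15 genes raised with *Per2* alone, and quantile normalization gave 1 gene higher with *Per1* and lower with *Per2*. The cause of these changes, beyond the limit and its rules, was not tested.

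Leaving out each library in turn gave 86 to 101 genes that rose and 46 to 57 that fell with *Per1*, 63 to 81 and 54 to 62 with *Per2*, 18 to 28 and 31 to 37 with the *Per1* effect above and below, 21 to 26 raised and 11 to 19 lowered with *Per1* alone, 6 to 10 raised and 8 to 17 lowered with *Per2* alone, and 0 to 3 and 2 to 4 in opposite directions. The count of 8 lowered with *Per2* alone came without *Gfp* library 1 of the *Per2* set. The correlation stayed between 0.680 and 0.702.

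Libraries of the same number were treated as unpaired. The correlations of same-numbered deviations were 0.14, 0.06, -0.01 and 0.04 in the *Per1* set and 0.19, -0.09, -0.11, 0.03 and 0.05 in the *Per2* set. These values alone cannot show whether same-numbered cultures were handled together. With the replicate block, 97 genes rose and 50 fell with *Per1*, 66 rose and 61 fell with *Per2*, and the difference was called for 23 above and 33 below. Without counts, the depth behind low values is unknown.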
